A study of Mus musculus with 171 samples.

Results

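Ileum was set against duodenum and proximal jejunum in 10 arrays of mouse small intestine, and the series holds 161 other arrays of mouse tissues. The ileal group held 4 arrays of 2 sources, named in the labels GI, IL (ileum) and GI, ILSham (ileum of a sham operation for short bowel resection). The proximal group held 6 arrays of 3 sources, named GI, Duo (duodenum), GI, P.Jej (proximal jejunum) and GI, Pjej46WT (proximal jejunum 46, called jejunum 46 WT here). The arrays were taken by these source names alone, with all probes, and no measured value entered the choice. Beside them stand the ileum after short bowel resection (GI, ILSBR, 2 arrays), and cecum, proximal colon and distal colon (2 arrays each) as the large intestine. The labels give no strain, genotype, sex or age for these groups, and do not spell out what 46 or WT stands for. The labels name no sort or dissection of cell types, so each value is an average over epithelium, muscle, lymphoid and other cells. Whether the 2 arrays of each source came from 2 animals is not labelled. For each source but jejunum 46 WT, both titles end in the same code, which may stand for a shared RNA sample and is not explained. The p-values therefore measure the spread between sources or arrays, and the spread between arrays of a source may be technical. That spread comes mostly from other tissue: the segment test uses 22 intestinal sources, 14 of them tumours, and the tests between single sources use every array of the series.

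The small intestine divides its work along its length. Duodenum and jejunum take up most sugar, fat, iron and calcium, and carry much of the gut's drug-metabolising enzyme activity. The ileum recovers bile acids and cobalamin, signals to the liver through the hormone Fgf15, and holds more Paneth cells, which secrete antimicrobial proteins at the crypt base, and more lymphoid follicles. Position along this axis is kept in the adult epithelium by transcription factors such as Gata4, which is restricted to the proximal part.

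Every value is a log2 ratio of tissue to a reference measured on the same 2-channel array, given in the labels as universal mouse reference RNA. Neither the direction of the ratio nor its log base is stated, and tissue over reference and base 2 were taken as likely. The deposited values are centred for each probe, so 0 marks a probe's median across the series, and a level can be set against another array but not against another probe. Each of the 10 arrays gave 8570 to 8638 probe values, with medians of 0.094 to 0.179, and no 2 of them were identical. Over probes, the paired arrays of the 4 sources other than jejunum 46 WT had r = 0.836 to 0.905. Ileal and proximal arrays whose titles carry the same array series correlated with r = 0.754 to 0.858, and those of different series with r = 0.659 to 0.791. The jejunum 46 WT arrays, whose titles have another form starting with #, stood apart: they correlated with r = 0.343 to 0.603 with the other 8. Their titles set the sample against a code that they do not explain. Whether that code is the same reference as on the other arrays was not tested. Called differences are given with and without the jejunum 46 WT arrays. The enterocyte markers Fabp2 and Alpi averaged 4.01 to 5.66 on the 10 arrays, against -2.22 to 5.66 over the whole series. Of the other marker lists, neurons (3 of 4 markers measured) averaged -0.95 to -0.12 and liver (1 of 4) -0.97 to 0.28. The pancreas markers Clps and Ctrb1 (2 of 7) read higher, at 1.16 to 2.31, against -1.94 to 2.69 over the whole series. Whether pancreas has a part in the values was not tested. No marker of T cells or fat was measured.

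Among called probes, ileum differed from duodenum and jejunum most in 2 hormones, in the sulfite oxidase Suox, in the kinase Cdkl2, in the glucose transporter Slc2a2 and in the carbonic anhydrase Car2. Of 8494 probes tested, 30 were called at an adjusted p below 0.05 in limma (0.353%), 22 of them higher in ileum (0.259%) and 8 lower (0.0942%). The calls named 27 genes, 19 higher and 8 lower, and 2 probes without a gene symbol (455408 and 419421, 1.39 and 1.30 higher). Their differences had sizes of 0.89 to 3.03 on the log2 scale, where the median over all probes was 0.024. The unit of the test was the source (2 ileal against 3 proximal), so its reach was limited. In limma 591 probes had an unadjusted p below 0.05, and 96 of 124 probes with a fitted difference over 1 in size were not called. How many of these truly differ is not known. Fits include a term for the # title form, carried by 9 of the 22 sources, so a fitted difference need not equal the difference of plain means. Without the tumours and this term, 8 probes were called, 7 of them among the 30.

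The 4 ileal arrays lay above all 6 proximal arrays for 19 of the 22 probes called higher, where 6.63% of all probes did so, and below all 6 for 5 of the 8 called lower, where 2.29% did so. Without the jejunum 46 WT arrays these counts were 21 of 22 (12.1% of all probes) and 7 of 8 (4.76%). All 30 differences kept their sign under every alternative tried and with each source or array left out. The probes were called on these same arrays, so the separation and the kept signs describe the calls and are no independent support. Their calls were less stable: 4 of the 30, namely both Suox probes, Fgf15 and Phlda1, stayed called without each of the 5 sources in turn. Those fits still take their spread mostly from the tumours and large intestine. With the 5 compared sources alone and no title form term, limma called 1 probe, a Suox probe (adjusted p = 0.033). There the other Suox probe had 0.096, Phlda1 0.078 and Fgf15 0.14. Quantile normalization left 9 calls, 5 higher (both Suox probes, Fgf15, Phlda1 and C2) and 4 lower (Slc2a2, Itpr2, Rec8 and Car2). The count was 12 to 17 without duodenum, ileum, sham ileum or proximal jejunum, 49 without jejunum 46 WT, and 19 without the second ileum array. With the array as the unit and the source as a random block, 33 probes were called, 12 of them among the 30: both Suox probes, Fgf15, Phlda1, Guca2a, Cdkl2, Cubn, Fgfbp1, Crybg1, Slc2a2, Itpr2 and Pparg. The other called genes lost their call in that fit, with adjusted p from 0.052 for Slc25a48 to 0.63 for Gsta3. In an alternative chosen after seeing the data, the 7 arrays of the 2 title series that hold both segments (AF6 and AFB) were compared with the series as a block and the array as the unit. It called 809 of 8638 probes (9.37%), 621 higher (7.19%) and 188 lower (2.18%), and 29 of the 30 were among them. This alternative counts both arrays of duodenum, proximal jejunum and sham ileum as independent. Arrays of a source had a consensus correlation of 0.488 in the random block fit. The adjusted p of this alternative therefore do not measure the spread between sources, and its counts run high. Values from this comparison are called within-series values here, and this limit holds for each of them. The AFB series alone holds 1 array each of ileum, sham ileum, duodenum and proximal jejunum. Within it 120 probes were called (1.39%), 0.706% of all probes higher and 0.683% lower, and 24 of the 30 were among them. Both of these alternatives reuse arrays that entered the 30 calls, so the shared calls are no independent support.

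**Figure D1:**
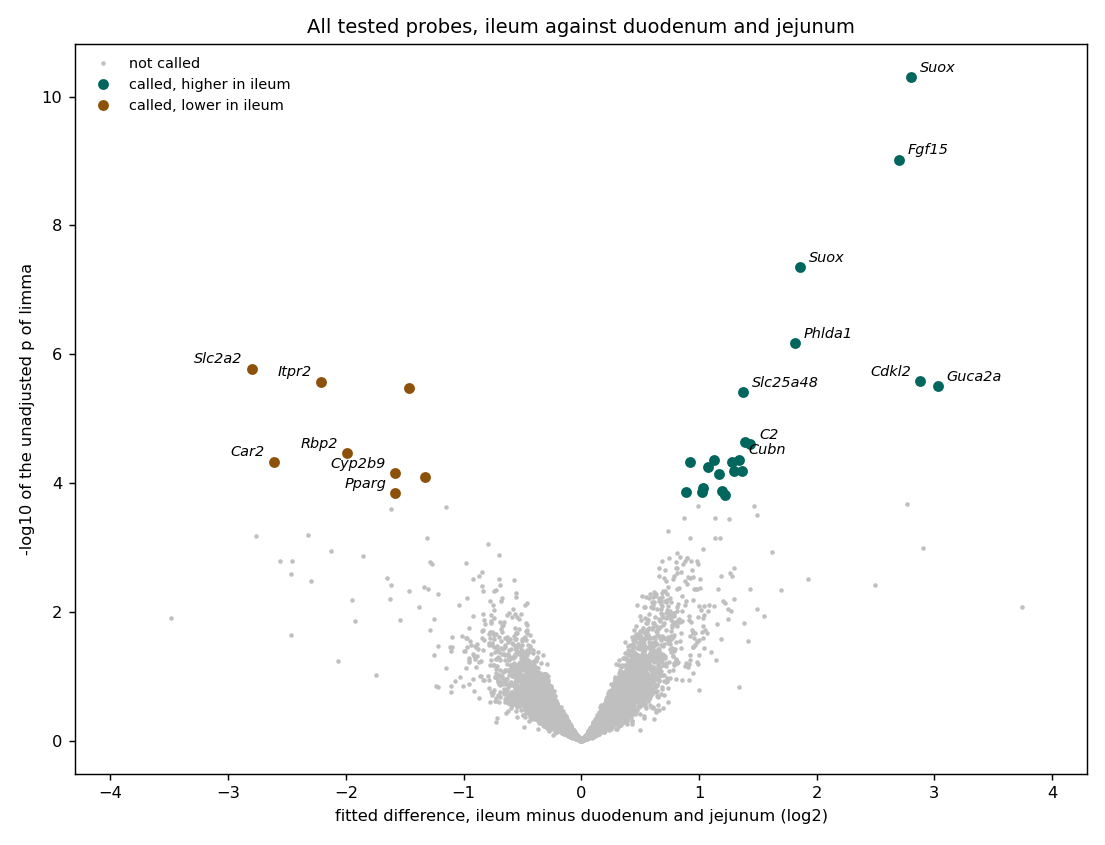
Each point is 1 of the 8494 tested probes, by its fitted log2 difference between ileum and the proximal sources (x axis) and the -log10 of its unadjusted p in limma (y axis). The 22 probes called higher in ileum lie on the right, led by both Suox probes and Fgf15, and the 8 called lower on the left, led by Slc2a2 and Itpr2.

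Promoter sequence was read for the called genes because Gata4 is the proximal factor of this axis and sits on the array. RefSeq start sites of GRCm38.p6 were found for 21 of the 27 called genes, and the 250 bases before each were searched on both strands for AGATAA, a form of the sequence that GATA factors recognise. It lay before a start site of 4 genes, Guca2a, Nr1h4, Gsta3 and Rbp2, and 11.4% of 27025 genes in the table have it there, so these few genes are a description only. The windows of 2 genes higher and 1 lower in ileum follow, 5′ to 3′ on the gene's strand, with the match in capitals. Guca2a (chr4:119637482-119637731, plus strand) holds 2 matches, Nr1h4 (chr10:89506659-89506908, minus strand) 1 and Rbp2 (chr9:98490287-98490536, plus strand) 1.
Guca2a: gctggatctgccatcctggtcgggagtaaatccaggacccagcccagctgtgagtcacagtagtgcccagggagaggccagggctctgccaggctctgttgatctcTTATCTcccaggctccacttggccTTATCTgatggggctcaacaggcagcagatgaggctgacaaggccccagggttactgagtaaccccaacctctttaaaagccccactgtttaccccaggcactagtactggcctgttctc
Nr1h4: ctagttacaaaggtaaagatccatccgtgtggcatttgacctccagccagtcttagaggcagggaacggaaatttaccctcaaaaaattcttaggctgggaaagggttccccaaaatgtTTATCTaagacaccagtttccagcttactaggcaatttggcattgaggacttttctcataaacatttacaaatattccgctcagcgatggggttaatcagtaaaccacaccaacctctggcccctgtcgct
Rbp2: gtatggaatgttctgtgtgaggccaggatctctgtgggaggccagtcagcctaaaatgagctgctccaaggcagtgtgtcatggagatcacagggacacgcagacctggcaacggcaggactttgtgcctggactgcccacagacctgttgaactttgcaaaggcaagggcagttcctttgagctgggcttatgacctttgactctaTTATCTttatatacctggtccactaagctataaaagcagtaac
Gata4 itself had 3 probes, and none was called: they differed by -0.98, -0.94 and -0.07 (adjusted p = 0.6, 0.64 and 1). On the probe with -0.98, duodenum read 2.94 and 3.53, proximal jejunum 2.70 and 2.51, jejunum 46 WT 2.66 and 2.51, ileum 1.01 and 1.42 and sham ileum 2.18 and 2.21. Every ileal array of that probe lay below every proximal one, while on the other 2 probes the groups overlapped.

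Genes of bile acid handling include the clearest hormone of the ileum. Fgf15, which the ileal epithelium makes when bile acids return and which restrains bile acid synthesis in the liver, read 2.71 and 3.36 in ileum and 1.72 and 2.66 in sham ileum. In duodenum it read 0.10 and -0.78, in proximal jejunum -0.05 and 0.19 and in jejunum 46 WT 0.42 and 0.48. The lowest ileal array lay over 1 log2 unit above the highest proximal one, and the fitted difference was 2.70 ± 0.27 (SE, adjusted p = 4.0e-06), or 2.75 without jejunum 46 WT. Nr1h4, the nuclear bile acid receptor that switches on Fgf15, had 2 probes. The one kept by rule read 3.05 to 3.27 on the ileal arrays and 1.67 to 2.50 on the proximal ones, with no overlap, but was not called (1.26 ± 0.30, adjusted p = 0.08). Its other probe was called (1.17 ± 0.24, adjusted p = 0.027), with overlapping arrays of 1.22 to 2.29 and 0.36 to 1.25. That call was lost without ileum (0.89, adjusted p = 0.44), without proximal jejunum (1.15, 0.15) and without jejunum 46 WT (0.96, 0.067), and without the first duodenum array or the second array of either ileal source (1.04 to 1.09, 0.059 to 0.1).

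Abcc2, an apical pump for conjugated organic anions, was in the opposite direction. It read 0.95, 1.15, 0.41 and 0.47 on the ileal arrays, 1.72 to 2.43 in duodenum and proximal jejunum and 0.57 and 1.42 in jejunum 46 WT. Its difference of -0.95 was not called (adjusted p = 0.54), while the within-series value was -1.49 (adjusted p = 0.0045). Slc27a5, which couples bile acids to coenzyme A, and Cyp27a1, a bile acid synthesis enzyme, were not called either (-0.40 and -0.05). Of the 5 measured genes of this list, Fgf15 alone was called by its kept probe, and the list's median was -0.05, against 0.03 over all genes tested.

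The receptor that takes up cobalamin was higher in ileum. Cubn (cubilin) binds the complex of intrinsic factor and cobalamin at the brush border. It read 1.96 and 2.38 in ileum, 2.40 and 2.59 in sham ileum, 0.63 and 0.84 in duodenum, 1.50 and 0.98 in proximal jejunum and 0.42 and 0.11 in jejunum 46 WT. All ileal arrays lay above all proximal ones (1.34 ± 0.26, adjusted p = 0.022; without jejunum 46 WT 1.35). The call was lost without duodenum (1.19, adjusted p = 0.17), ileum (1.50, 0.075) or sham ileum (1.18, 0.58), and without the second array of ileum (1.24, 0.054) or of proximal jejunum (1.25, 0.058).

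Amn (amnionless), which anchors cubilin in the membrane, read 3.13, 3.51, 3.11 and 3.59 on the ileal arrays. In duodenum it read 1.33 and 1.30, in proximal jejunum 2.40 and 2.16, and in jejunum 46 WT 3.45 and 1.83, so that 1 proximal array reached the ileal range. The difference was 1.38 ± 0.52 (adjusted p = 0.49), and the within-series value 1.57 (adjusted p = 0.013). Tcn2, the plasma carrier transcobalamin, read 2.26 to 2.89 in the ileal arrays and 1.04 to 1.93 in the proximal ones, without overlap (0.78, adjusted p = 0.6; within series 0.77, 0.024). Of the 5 measured genes, 3 were called higher in ileum than in large intestine, where 4.72% of all genes were. The list's median was 0.78, with 1 of 5 measured genes called higher, where 0.32% of all 5630 genes were. Within series 3 of 5 were called higher, where 7.64% of all genes were.

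**Figure D2:**
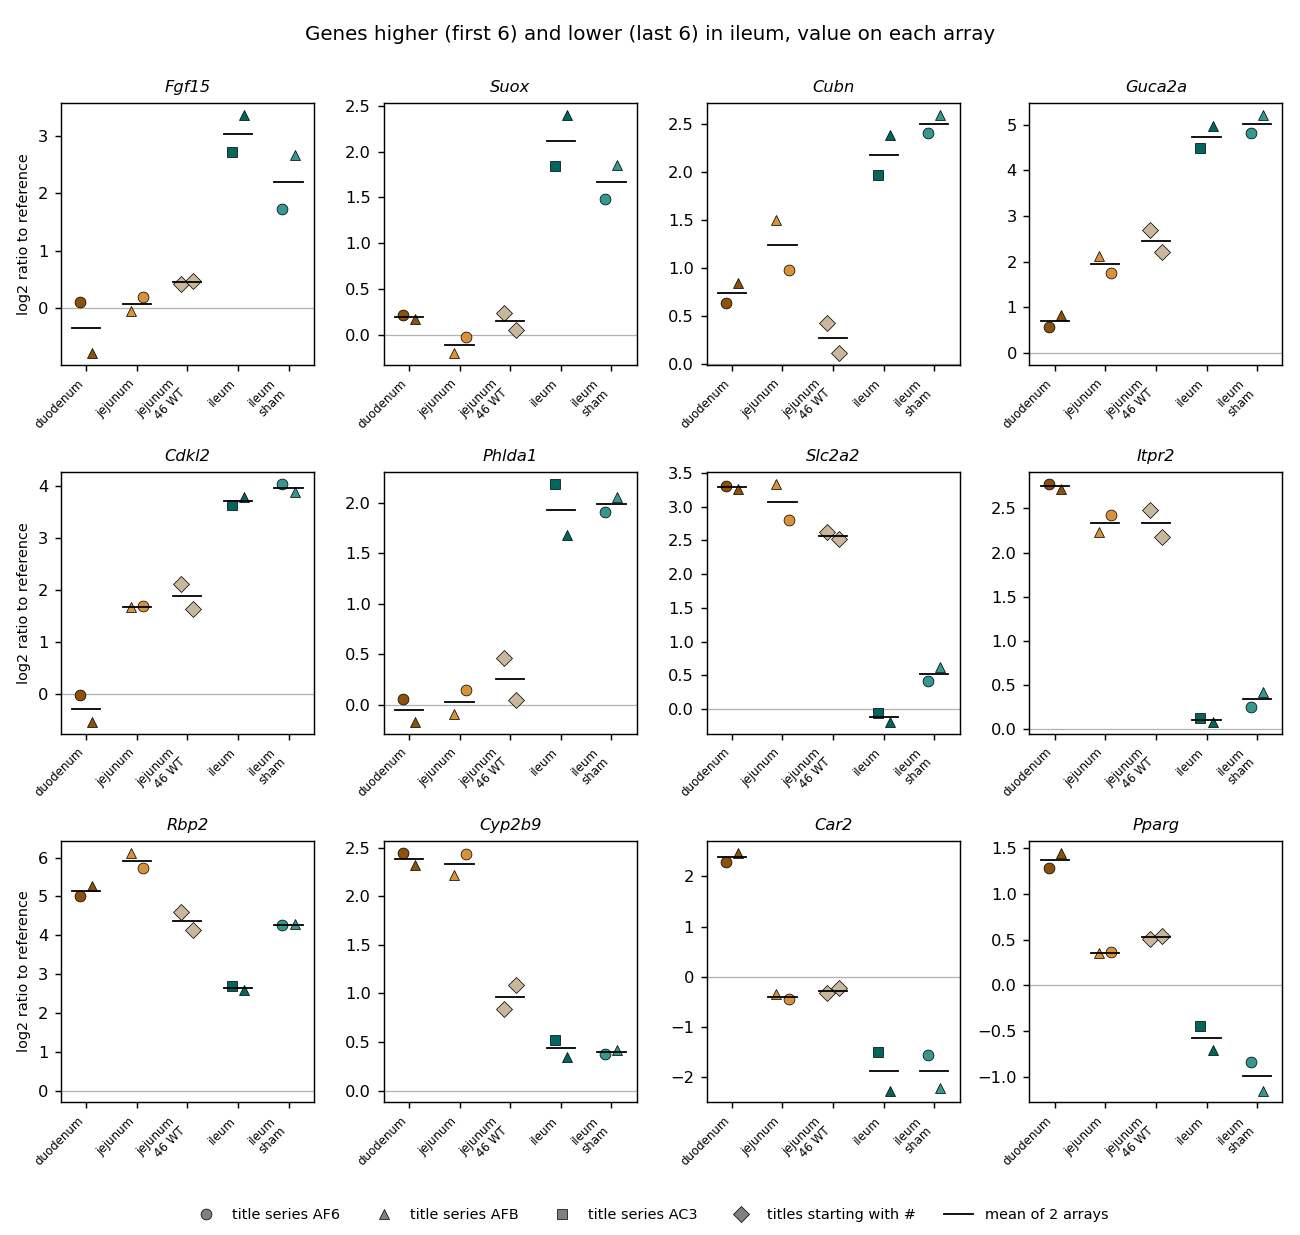
Each panel plots 1 called gene, with the log2 ratio to the reference on the y axis, 1 point for each of the 10 arrays by source, and a line at the mean of both arrays of a source. Point shapes give the series in the array title. The first 6 genes are higher in both ileal sources than in the 3 proximal ones, and the last 6 lower, apart from Rbp2, whose jejunum 46 WT arrays (4.13 and 4.59) reach the sham ileum arrays (4.26 and 4.28).

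Of the genes called lower, Slc2a2, Itpr2 and Rec8 had the lowest adjusted p in limma (0.0029, 0.0031 and 0.0031). Slc2a2, the GLUT-type transporter that passes glucose and fructose out of enterocytes, read 3.31 and 3.27 in duodenum, 3.34 and 2.81 in proximal jejunum and 2.62 and 2.52 in jejunum 46 WT. In ileum it read -0.06 and -0.19, and in sham ileum 0.42 and 0.62. The groups were far apart (-2.80 ± 0.43, adjusted p = 0.0029, or 6.97-fold lower if the log base is 2; without jejunum 46 WT -2.99), and the call was lost without ileum (-2.48, adjusted p = 0.071). Of the 6 measured genes of carbohydrate digestion and sugar handling, Slc2a2 alone was called, where 0.142% of all genes were called lower, and the list's median was -0.53. The apical glucose transporter Slc5a1 differed by -1.03 and the gluconeogenic enzyme Fbp1 by -1.46, neither called.

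Itpr2, an inositol trisphosphate receptor that releases calcium from the endoplasmic reticulum, followed the same pattern. It read 2.78 and 2.72 in duodenum, 2.23 and 2.43 in proximal jejunum and 2.48 and 2.18 in jejunum 46 WT, against 0.12, 0.08, 0.25 and 0.42 on the ileal arrays. All ileal arrays lay below all proximal ones (-2.21 ± 0.35, adjusted p = 0.0031; without jejunum 46 WT -2.32). This call too was lost without ileum (-2.09, adjusted p = 0.067).

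Of vitamin A and fat handling, 1 gene was called lower in ileum. Rbp2, which binds retinol inside enterocytes, read 5.00 and 5.28 in duodenum, 6.13 and 5.72 in proximal jejunum, 4.59 and 4.13 in jejunum 46 WT, 2.69 and 2.60 in ileum and 4.26 and 4.28 in sham ileum. The sources were ordered with proximal jejunum highest and ileum lowest, and sham ileum overlapped jejunum 46 WT. Its difference was -1.99 ± 0.38 (adjusted p = 0.022; without jejunum 46 WT -2.08). Without ileum it was -1.18 (adjusted p = 0.48), and without proximal jejunum -1.72 (0.15). Rbp2 was the 1 called gene among 20 measured for chylomicron assembly and lipid absorption, where 0.142% of all genes were called lower.

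Other genes of fat handling with large differences, which were chosen after their values were seen, were not called. Slc27a2, a fatty acid transport protein, read 0.55 to 0.76 on the ileal arrays and 1.80 to 2.86 on the proximal ones, without overlap (-1.65 ± 0.50, adjusted p = 0.27; within series -2.15, 0.00018). Apoc3, an inhibitor of lipoprotein lipase, also did not overlap (2.05 to 2.51 against 3.30 to 4.58; -1.15 ± 0.61, adjusted p = 0.79). Apoc2, the activator of that lipase, did: ileum read -0.44 and -0.74 and sham ileum 1.71 and 1.90, while jejunum 46 WT read 1.36 and 1.02 and the other proximal arrays 3.13 to 3.85. The list's median was -0.26, and within series 5 of its genes were called lower (2.26% of all genes) and 2 higher (7.64%). Mttp, which loads lipid onto apolipoprotein B, differed by -0.56 (adjusted p = 0.94).

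Enzymes that modify drugs and other foreign compounds were lower in ileum for 2 of 26 measured genes, where 0.142% of all genes were. Cyp2b9, a cytochrome P450, read 2.45 and 2.32 in duodenum, 2.22 and 2.44 in proximal jejunum, 0.84 and 1.09 in jejunum 46 WT, and 0.35 to 0.52 on the 4 ileal arrays. All ileal arrays were lowest (-1.58 ± 0.32, adjusted p = 0.027; without jejunum 46 WT -1.94, 0.0012). Its call was lost without duodenum, ileum, sham ileum or proximal jejunum (-1.36 to -1.60, adjusted p = 0.17 to 0.47). Gsta3, a glutathione transferase, was called with overlapping arrays: the ileal arrays read 0.11, -0.21, -0.40 and -1.46, and duodenum 2.57 and -0.80, proximal jejunum 1.06 and 1.34 and jejunum 46 WT -0.14 and -0.05. Both duodenum arrays differed by over 3 log2 units, and without the first the difference of Gsta3 fell from -1.33 ± 0.28 (adjusted p = 0.029) to -0.72 (0.79). It also lost its call without duodenum as a whole (-1.31, adjusted p = 0.16), sham ileum (-0.89, 1) and proximal jejunum (-1.13, 0.27), and without ileum replicate 2 or sham ileum replicate 2 (-1.25, 0.072 and -1.07, 0.085), and was not called within series (-1.52, 0.11); without jejunum 46 WT it was -1.53.

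Larger differences in this list, for genes chosen after their values were seen, were not called, and the sources of a segment differed among themselves. Cyp2b10 read 4.47 to 5.04 in duodenum and proximal jejunum, 2.66 and 3.14 in jejunum 46 WT, 1.86 and 1.89 in ileum and 0.55 and 0.63 in sham ileum (-2.76 ± 0.70, adjusted p = 0.13; without jejunum 46 WT -3.54, 0.0058). Cyp3a11, the main P450 of its family in mouse gut and liver, read 6.19 to 6.72 in duodenum and proximal jejunum, 3.96 and 3.79 in jejunum 46 WT, 4.69 and 4.67 in ileum and 2.13 and 1.81 in sham ileum (-2.46 ± 0.73, adjusted p = 0.27). Adh1, a retinol and alcohol dehydrogenase, read -0.69 to 0.00 on the ileal arrays and 0.74 to 2.71 on the proximal ones (-2.46 ± 0.69, adjusted p = 0.22). In Cyp2b10 and Adh1 no ileal array reached a proximal one, while in Cyp3a11 ileum lay above jejunum 46 WT. The list's median was -0.37, against 0.03 over all genes. Ileal arrays lay below all proximal ones in 7 of 26 genes, where 2.26% of all genes did so, and above in 2 (6.96% of all genes). Without jejunum 46 WT these counts were 11 below (4.6% of all genes) and 3 above (12.7%). Within series 11 were called lower (2.26% of all genes) and 2, Abcg2 and Aldh1b1, higher (7.64%).

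Car2 and Pparg marked both ends of the axis and the large intestine, with ileum lowest. Car2, a cytosolic carbonic anhydrase, read 2.29 and 2.47 in duodenum, -0.34 and -0.45 in proximal jejunum, -0.32 and -0.23 in jejunum 46 WT, and -1.50, -2.26, -1.55 and -2.21 on the ileal arrays, while large intestine read 3.42 to 4.59. Ileum lay below every other segment (against duodenum and jejunum -2.61 ± 0.52, adjusted p = 0.022, without jejunum 46 WT -2.87; against large intestine -5.92 ± 0.51, 2.3e-07). The first call was lost without duodenum (-1.68, adjusted p = 0.074), ileum (-2.61, 0.16) or sham ileum (-2.61, 0.37), and without the second ileum array (-2.42, 0.051). Car2 was the 1 called gene of 6 carbonic anhydrases and of 5 red blood cell genes, a list that also holds it, where 0.142% of all genes were called lower. The red cell markers Hba-a1 and Alas2 averaged -2.28 to 0.29 over the 10 arrays, and their part in the Car2 values was not tested.

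Pparg, a nuclear receptor of lipid metabolism, read 1.28 and 1.45 in duodenum, 0.35 and 0.36 in proximal jejunum, 0.51 and 0.54 in jejunum 46 WT and -0.44, -0.71, -0.84 and -1.15 on the ileal arrays. Large intestine read 1.62 to 3.35, so ileum was again the lowest segment (-1.58 ± 0.34 against the proximal sources, adjusted p = 0.042, without jejunum 46 WT -1.64, and -3.27 ± 0.34 against the large intestine, 3.3e-06, where 3.36% of all genes were called lower). Its second probe differed by -0.89 (adjusted p = 0.72). The call was lost without duodenum (-1.26, adjusted p = 0.34), ileum (-1.79, 0.13) or sham ileum (-1.37, 0.91), and without the second array of either (-1.51, 0.072 and -1.50, 0.07). Pparg was the 1 called gene of 5 on the fat tissue list (0.142% of all genes were called lower), of which no defining marker was measured.

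Among secreted products of the epithelium, Guca2a had the largest difference of all called genes. It encodes guanylin, which opens chloride secretion through the receptor guanylate cyclase. Guca2a read 0.57 and 0.84 in duodenum, 2.13 and 1.75 in proximal jejunum, 2.69 and 2.22 in jejunum 46 WT, 4.48 and 4.97 in ileum and 4.82 and 5.21 in sham ileum. Levels were lowest in duodenum and highest in ileum with no overlap (3.03 ± 0.49, adjusted p = 0.0031, or 8.16-fold if the log base is 2; without jejunum 46 WT 3.55). Cecum and colon read 5.15 to 6.45, and the difference of ileum from them was not called (-1.02, adjusted p = 0.21). The call of Guca2a was lost without sham ileum (2.88, adjusted p = 0.095). It was the 1 called gene of 7 on the goblet cell list (0.32% of all genes were called higher), whose median was 0.61 and whose 7 differences were all above 0. The goblet markers Tff3 and Clca1 averaged 3.56 to 4.18 on the ileal arrays and 2.03 to 3.75 on the proximal ones, and their part in the Guca2a values was not tested.

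Fgfbp1, a secreted protein that releases fibroblast growth factors from the matrix, read 1.19, 1.19, 0.78 and 0.96 on the ileal arrays and -0.60 to 0.02 on the proximal ones. All ileal arrays were higher (1.20 ± 0.26, adjusted p = 0.042; without jejunum 46 WT 1.38), and the large intestine read higher still, at 1.23 to 2.59. Its call was lost without duodenum, ileum, sham ileum or proximal jejunum (0.97 to 1.36, adjusted p = 0.15 to 0.41), and without the second array of ileum, sham ileum, proximal jejunum or jejunum 46 WT (1.15 to 1.20, 0.053 to 0.07).

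Suox and Phlda1 were near their medians across the series in the proximal gut and higher in ileum. Suox, the mitochondrial enzyme that oxidises sulfite to sulfate, read 1.84 and 2.40 in ileum, 1.48 and 1.85 in sham ileum, 0.21 and 0.17 in duodenum, -0.20 and -0.03 in proximal jejunum and 0.24 and 0.05 in jejunum 46 WT. Its difference was 1.86 ± 0.23 (adjusted p = 0.00013; without jejunum 46 WT 1.85). A second probe of Suox gave 2.80 ± 0.24 (adjusted p = 4.2e-07; without jejunum 46 WT 2.85), the lowest p of all probes, with ileal arrays at 2.62 to 3.31 and proximal ones at -0.14 to 0.23. Phlda1, a pleckstrin homology-like protein of growth factor responses, read 2.19, 1.68, 1.91 and 2.06 on the ileal arrays and -0.17 to 0.46 on the proximal ones (1.82 ± 0.26, adjusted p = 0.0014; without jejunum 46 WT 1.97). Neither gene was raised in the large intestine to ileal levels: cecum and colon read 0.15 to 0.58 for Suox and -0.12 to 0.42 for Phlda1, and both were called higher in ileum than there (1.60, adjusted p = 9.0e-05, and 1.88, 8.1e-05).

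Cdkl2, a kinase related to the cyclin-dependent kinases, climbed along the small intestine. It read -0.03 and -0.54 in duodenum, 1.67 and 1.68 in proximal jejunum, 2.12 and 1.64 in jejunum 46 WT, 3.63 and 3.79 in ileum and 4.04 and 3.89 in sham ileum. The large intestine read -0.28 to 0.79, back at the duodenal level. Its differences were 2.88 ± 0.46 from the proximal sources (adjusted p = 0.0031; without jejunum 46 WT 3.14) and 3.58 ± 0.45 from the large intestine (2.5e-05). Without sham ileum the first was 2.75 and not called (adjusted p = 0.086).

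Of the other called genes, C2 and Casp4 belong to innate defence. C2, a complement component, read 0.67, 0.73, 1.37 and 1.36 on the ileal arrays and -0.92 to 0.44 on the proximal ones, the highest of which were jejunum 46 WT (1.43 ± 0.27, adjusted p = 0.018; without jejunum 46 WT 1.60). Casp4, an inflammatory caspase that senses bacterial lipopolysaccharide, read 2.09, 2.33, 1.40 and 2.04 against 0.16 to 1.00 in duodenum and proximal jejunum. In jejunum 46 WT it read 1.79 and 1.02, so that the groups overlapped (1.22 ± 0.27, adjusted p = 0.044; without jejunum 46 WT 1.38). C2 lost its call without duodenum (1.24, adjusted p = 0.14), proximal jejunum (1.44, 0.067) or sham ileum (1.10, 0.69). Casp4 lost it without each source but jejunum 46 WT (0.98 to 1.47, adjusted p = 0.14 to 0.48), and also without the first duodenum array or the second array of any other source (1.06 to 1.16, 0.063 to 0.17).

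Slc25a48 and Acot11 act in mitochondrial and fatty acid metabolism, as a member of the mitochondrial carrier family and as an acyl-CoA thioesterase. Slc25a48 read 0.92 to 1.44 on the ileal and -0.63 to 0.33 on the proximal arrays (1.37 ± 0.22, adjusted p = 0.0033; without jejunum 46 WT 1.44), and Acot11 read 1.89 to 2.89 against 0.59 to 1.67 (1.08 ± 0.22, adjusted p = 0.025). In neither gene did the groups overlap. Slc25a48 was not called without ileum (1.33, adjusted p = 0.067) or sham ileum (1.41, 0.055), nor Acot11 without sham ileum (0.66, 1), proximal jejunum (1.00, 0.15) or jejunum 46 WT (0.99, 0.053), or without the second ileum array (1.03, 0.054).

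Mier3, a nuclear protein of a transcriptional repressor family, read 1.26 to 2.83 on the ileal and 0.18 to 0.70 on the proximal arrays (1.36 ± 0.28, adjusted p = 0.027). Crybg1, a protein with beta-gamma crystallin domains, read 1.16 to 1.76 against 0.13 to 0.60 (1.13 ± 0.22, adjusted p = 0.022; without jejunum 46 WT 1.16). Pdlim2, a cytoskeletal adaptor with PDZ and LIM domains, read 0.85 to 1.63 against -0.24 to 0.60 (1.04 ± 0.22, adjusted p = 0.04; without jejunum 46 WT 1.13). Mier3, Crybg1 and Pdlim2 had no overlap, yet each lost its call without duodenum (adjusted p = 0.097 to 0.33), sham ileum (0.69 to 1) or proximal jejunum (0.057 to 0.072). Mier3 lost it also without jejunum 46 WT (1.26, 0.06) and without the first array of ileum (1.29, 0.052) or sham ileum (1.06, 0.087). Pdlim2 lost it without ileum (1.26, 0.07) and without the second array of any source but duodenum (0.94 to 0.99, 0.069 to 0.11). Yipf5, a membrane protein between endoplasmic reticulum and Golgi, was called by its kept probe (1.28 ± 0.25, adjusted p = 0.022; without jejunum 46 WT 1.48), while its other probe gave -0.30 (0.85), so that its direction is uncertain. The call of Yipf5 was lost without duodenum (1.07, adjusted p = 0.21), proximal jejunum (1.27, 0.1) or sham ileum (0.93, 0.91), and without the first array of ileum (1.14, 0.074) or sham ileum (1.06, 0.052).

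Rec8, known as a cohesin subunit of meiosis, was the remaining gene called lower. It read 1.96 and 2.27 in duodenum, 1.52 and 1.37 in proximal jejunum, 0.31 and 0.33 in jejunum 46 WT and 0.04, 0.10, 0.43 and 0.29 on the ileal arrays. The second ileal source overlapped jejunum 46 WT, and the difference was -1.46 ± 0.24 (adjusted p = 0.0031; without jejunum 46 WT -1.56; without ileum -1.32, 0.085). With normal sources only and no title form term, Rec8 was not called (-1.08, adjusted p = 0.35). Cpne2, Adk and Krba1 completed the called genes, named here after their values were seen (1.03, 0.93 and 0.89 higher; without jejunum 46 WT 1.17, 0.95 and 0.92). Each of the 3 lost its call without duodenum, ileum, sham ileum or proximal jejunum (adjusted p = 0.079 to 1), and also without single arrays: Adk without the second duodenum array (0.74, 0.2), Cpne2 without the second array of any source but duodenum (0.91 to 1.00, 0.063 to 0.13), and Krba1 without the second array of any source but proximal jejunum (0.81 to 0.86, 0.053 to 0.096).

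Of 36 lists of genes for functions and cell types, 9 held a called gene and 27 held none, among 377 measured of 1048 listed genes. Among the latter, the antimicrobial list had the highest median, 0.59. None of the 11 measured genes of Paneth cells and antimicrobial defence was called by limma, 3 had an unadjusted p below 0.05, and 6 were called higher within series (7.64% of all genes). Ang4, a microbicidal ribonuclease of Paneth cells, read 4.40, 5.19, 5.49 and 5.80 on the ileal arrays, 1.26 and 1.94 in duodenum, 3.12 and 2.52 in proximal jejunum and 2.16 and 2.22 in jejunum 46 WT. It fell just short of the threshold without any overlap (2.77 ± 0.62, adjusted p = 0.058; within series 3.22, 0.0028). Reg3b and Reg3g, secreted lectins that bind bacteria, read lowest in duodenum and highest in the ileal sources. Reg3b read 1.92 and 2.24 in duodenum, 5.54 and 4.74 in proximal jejunum, 6.22 and 6.11 in jejunum 46 WT, 6.67 and 7.47 in ileum and 7.78 and 7.92 in sham ileum, and Reg3g read 0.95 to 5.04 on the proximal and 5.13 to 6.66 on the ileal arrays. The proximal sources spread widely, and the differences of 3.74 ± 1.29 and 2.90 ± 0.77 were not called (adjusted p = 0.4 and 0.18). In this list 5 of 11 genes had all ileal arrays above all proximal ones, where 6.96% of all genes did, and 1 had them below (2.26% of all genes). These genes were named after their values were seen.

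Region transcription factors were called in no case by the kept probe (4 of 12 were higher at an unadjusted p below 0.05, as were 285 of all 5630 genes), and 5 were called higher within series (7.64% of all genes). Cdx1, an intestinal homeobox factor with rising levels toward the colon, read 1.65 to 2.33 on the ileal arrays and 0.49 to 1.28 on the proximal ones, without overlap (0.77 ± 0.32, adjusted p = 0.6; within series 0.96, 0.0037). Cdx2, its relative that sets intestinal identity, read 2.09, 3.28, 2.44 and 2.95 in ileum and 0.77 to 2.14 proximally, and just overlapped (1.19 ± 0.35, adjusted p = 0.27; within series 1.11, 0.0087). Klf5, a factor of crypt cells, differed by 0.98 (adjusted p = 0.62; within series 0.97, 0.0028), and Creb3l3, a regulator of lipid genes, by -0.65 (adjusted p = 0.9). The list's median was 0.32. The 8 measured enteroendocrine genes were not called by limma, with none at an unadjusted p below 0.05 and none within series: Pyy differed by 0.33, Cck by -0.53, Sst by 0.36 and Insl5 by -0.59.

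No gene of the crypt and proliferation list was called by limma. Of 22 measured genes, 18 had differences above 0 (3066 of all 5630 genes did), the median was 0.32, 2 had an unadjusted p below 0.05, and 11 were called higher within series (7.64% of all genes) and none lower. Axin2, a target and brake of Wnt signalling, read 0.76 to 0.93 on the ileal arrays, -0.49 to -0.19 in duodenum and proximal jejunum, and -0.03 and 0.67 in jejunum 46 WT (0.90, adjusted p = 0.22; within series 1.11, 0.0028). Mcm5, a subunit of the replicative helicase, read 0.26 to 0.48 in ileum, -0.48 to -0.30 in duodenum and proximal jejunum and 0.26 and 0.36 in jejunum 46 WT (0.44, adjusted p = 0.94; within series 0.73, 0.0097). Both genes, chosen after their values were seen, separated the segments in the arrays of shared series, while jejunum 46 WT lay partly or wholly at the ileal level for Mcm5.

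No gene of the B cell, antigen presentation and smooth muscle lists was called by limma. Within series, where 7.64% of all genes were called higher, the B cell list had 8 of 19 genes called higher (4 at an unadjusted p below 0.05 among all sources), and the antigen presentation list had 5 of 12, with all 12 differences above 0 (2 at an unadjusted p below 0.05). Cd79b, a subunit of the B cell receptor, read 0.72 to 1.01 on the ileal arrays and -0.70 to 0.47 on the proximal ones (1.01, adjusted p = 0.33; within series 1.14, 0.016). H2-Aa, a class II chain that presents peptides, read 2.16 to 3.10 against 1.10 to 1.97 (0.53, adjusted p = 0.94; within series 1.11, 0.0051). Neither gene overlapped between the groups. The 3 measured B cell markers, Cd79a, Cd79b and Ms4a1, averaged 0.36 to 0.82 on the ileal and -0.41 to 0.27 on the proximal arrays. Cnn1, a smooth muscle calponin and the 1 measured of 6 muscle markers, read 2.18 to 2.33 on the ileal and 0.54 to 0.91 on the proximal arrays (1.49 ± 0.35, adjusted p = 0.073; within series 1.48, 0.00038). The 9 muscle genes had a median of 0.44, with 3 at an unadjusted p below 0.05. In tissue pieces like these, a change in the number of cells of a type and a change in RNA per cell cannot be told apart, and the part of muscle and B cells in the other values was not tested.

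**Figure D3:**
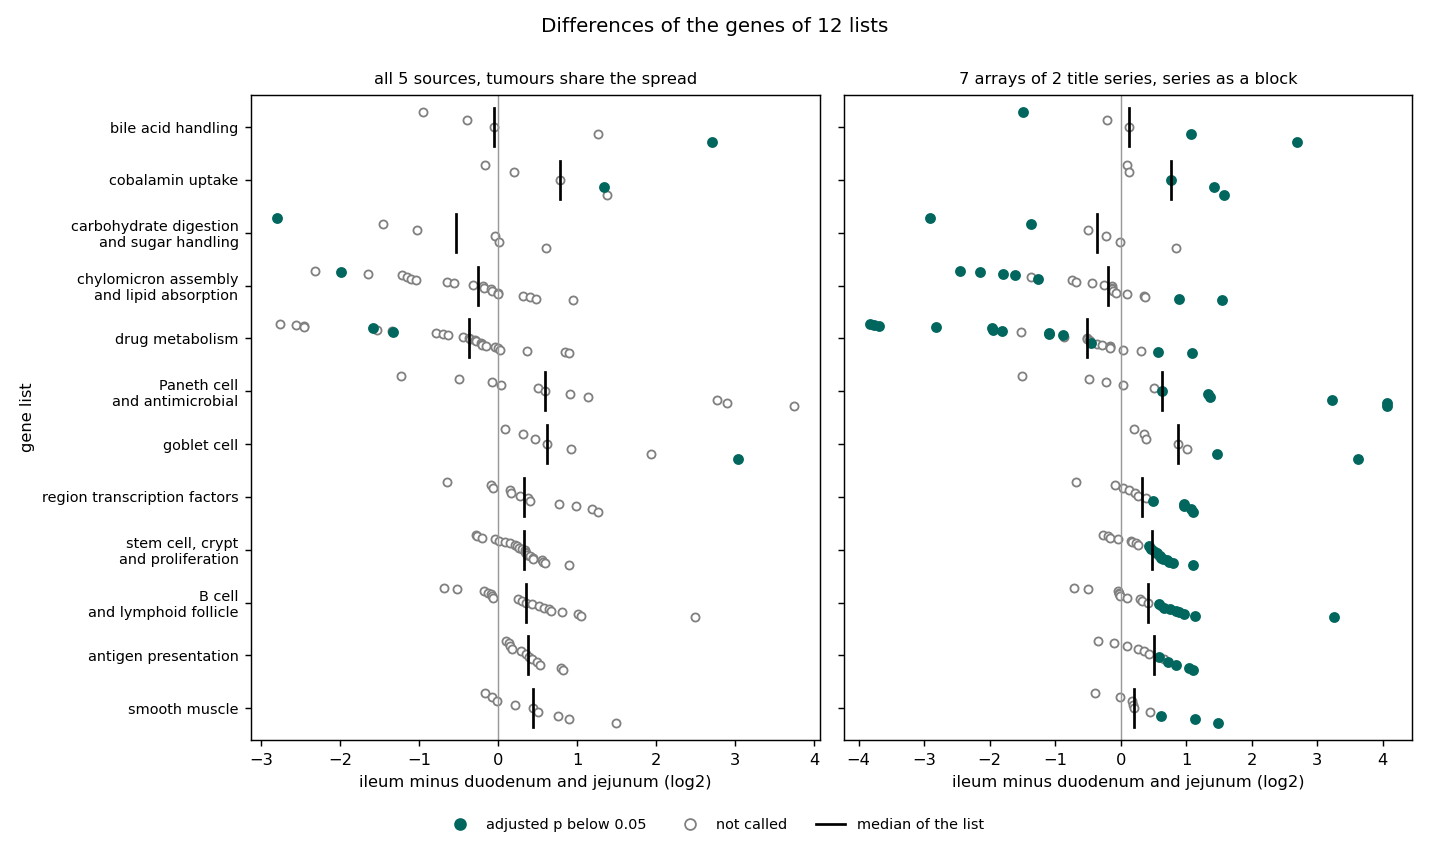
Each point is 1 gene of 12 lists, by its log2 difference between ileum and the proximal sources; filled points passed an adjusted p of 0.05 and lines mark the list's median. The left panel uses all 5 sources and the right one the 7 arrays of 2 title series with the series as a block. On the right, arrays of a source count as independent, and more genes pass. Drug metabolism has its median at -0.37 in the left panel and crypt and proliferation genes at 0.32.

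Against the large intestine, ileum was higher in Reg3b, Reg3g, Mttp, Cyp4v3 and Alpi and lower in Car2, Hao2 and Pparg. That comparison called 653 of 8494 probes (7.69%), 388 higher in ileum (4.57%) and 265 lower (3.12%). It shares its ileal arrays with the comparison above. Adk (adenosine kinase), higher in ileum than proximally, was lower than in the large intestine (-0.70, adjusted p = 0.019), and Rbp2, lower than proximally, was higher (2.80, adjusted p = 6.2e-05). The largest differences from the large intestine were those of Reg3b (5.70 ± 1.27, adjusted p = 0.0072), Mttp (5.34 ± 0.46, 2.3e-07), Reg3g (5.22 ± 0.75, 0.00012), Cyp4v3, a fatty acid hydroxylase (4.31 ± 0.51, 1.2e-05), and Alpi, intestinal alkaline phosphatase (3.83 ± 0.90, 0.01). Reg3b and Alpi were not called without sham ileum (5.31, adjusted p = 0.14, and 3.44, 0.18). Lowest beside Car2 and Pparg were Hao2, a hydroxyacid oxidase (-5.07 ± 0.35, adjusted p = 7.9e-09), Wfdc2, a secreted protease inhibitor (-3.10 ± 0.47, 0.00022), and Slc20a1, a phosphate transporter (-3.07 ± 0.46, 0.0002). The count was 103 without sham ileum, and 350 to 421 without ileum, cecum, proximal colon or distal colon.

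Ileum after bowel resection had no part in the segment test. Guca2a read 4.79 and 5.45 there, Cdkl2 3.69 and 3.81, Slc2a2 0.54 and 0.76 and Itpr2 0.14 and 0.45, all within or near the range of the other ileal arrays. Fgf15 was the exception among the largest differences, with 0.59 and 0.81 after resection, close above the highest proximal array (0.48).

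**Figure D4:**
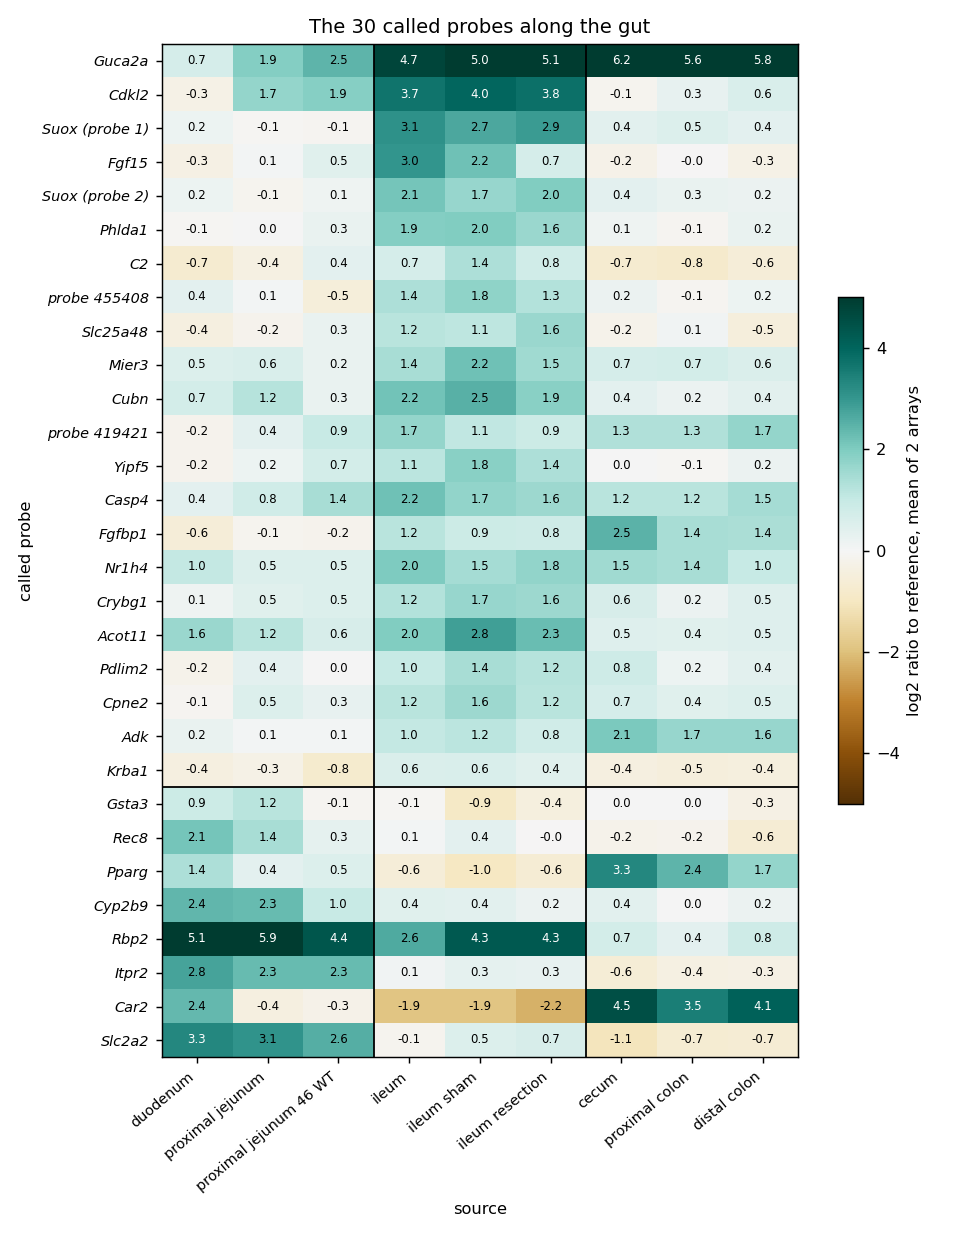
Each line of the map is 1 of the 30 called probes and each column 1 source, with the mean log2 ratio of its 2 arrays printed and coloured (colours are even beyond 5). Colours compare sources for a probe, not probes. Suox is high in the 3 ileal columns and low on both sides. Cdkl2 is highest in the ileal columns, intermediate in the jejunal ones and low in duodenum and large intestine. Guca2a stays high into the colon, and Car2 and Pparg are lowest in ileum.

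Within the proximal group, duodenum differed from proximal jejunum by 66 of 8638 probes (0.764%), 46 higher (0.533%) and 20 lower (0.232%), tested by limma with the array as the unit. Each group is a single source, so these p-values measure the spread between arrays of a source, not between sources or animals. Mucosal protection and iron export led. Tff2, a trefoil peptide of Brunner glands and gastric mucous cells, read 6.73 and 7.26 in duodenum, 0.50 and 0.77 in proximal jejunum and -1.32 to -0.70 on the ileal arrays (6.36 ± 0.34 between duodenum and jejunum, adjusted p = 7.9e-29). Tff1, a trefoil peptide of the stomach surface, read 5.85 and 5.98 against 0.22 and 0.24 (5.68 ± 0.35, adjusted p = 1.0e-24). Tff1 is also the 1 measured of 4 stomach markers, and whether stomach tissue has a part in the duodenal values was not tested. Of the 5 measured genes of the Brunner gland and stomach list, 3 were called higher in duodenum, where 0.604% of all genes were.

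Slc40a1 (ferroportin), which passes iron from enterocytes to blood, read 3.58 and 3.87 in duodenum, -0.27 and -0.33 in proximal jejunum and -1.04 to -0.49 on the ileal arrays. Its difference between duodenum and proximal jejunum was 4.03 ± 0.31 (adjusted p = 1.9e-19). The apical iron importer Slc11a2, named as its partner after its values were seen, differed by 2.37 ± 0.16 (1.0e-21). Atp2b1, a calcium pump of the basolateral membrane, read 2.64 and 2.81 against 0.15 and 0.03 (2.63 ± 0.18, adjusted p = 9.9e-23), but a second probe of it gave -0.53 (adjusted p = 1). Car2 was higher in duodenum by 2.78 ± 0.30 (adjusted p = 8.1e-12).

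Lower in duodenum than in proximal jejunum were Reg3b (-3.06 ± 0.42, adjusted p = 1.1e-07), Reg3g (-2.03 ± 0.38, 0.00022) and Cdkl2 (-1.96 ± 0.27, 1.3e-07). These 3 read higher still in both ileal sources, as their arrays above show. Cd36, a fatty acid receptor, read -0.63 and -0.87 in duodenum, 1.34 and 1.29 in proximal jejunum and -0.75 to -0.21 on the ileal arrays, and 0.21 and 0.11 in jejunum 46 WT, so that proximal jejunum was highest (-2.06 ± 0.46, adjusted p = 0.0046). It was not called without the second duodenum array (-1.94, adjusted p = 0.16) or either array of proximal jejunum (-2.04, 0.09 and -2.09, 0.075). Bst1, an ADP-ribosyl cyclase, read 4.0 and 1.05 in duodenum and 5.28 and 5.15 in proximal jejunum (-2.69 ± 0.58, adjusted p = 0.0024). Without the second duodenum array the difference was -1.21 (adjusted p = 1), and Bst1 was not called without the first array of proximal jejunum either (-2.62, 0.074). The count of 66 was 39 without the second duodenum array and 43 and 41 without the first and second arrays of proximal jejunum, and with the arrays of both sources alone 3 probes were called.

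Both ileal sources differed from each other by 253 of 8638 probes (2.93%), 189 higher in sham ileum (2.19%) and 64 lower (0.741%), tested with the array as the unit. Each group is again a single source, so the p-values measure the spread between arrays of a source. With the arrays of both sources alone 9 probes were called. Of these arrays, only the first ileum array carries the title series AC3. After quantile normalization the count was 65, 29 higher and 36 lower, and after centring each array on its median 236, 158 higher and 78 lower. It was 100 and 146 without the first and second ileum arrays and 102 without the second sham ileum array. Igh, immunoglobulin heavy chain, had the largest difference. It read 4.46 and 4.56 in sham ileum, 1.05 and 1.51 in ileum and 0.10 to 0.63 on the proximal arrays (3.23 ± 0.42, adjusted p = 5.0e-08). The 3 B cell markers averaged 0.38 to 0.82 in sham ileum and 0.36 to 0.64 in ileum, which overlap.

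Apoc2 was higher in sham ileum by 2.40 ± 0.53 (adjusted p = 0.0018), and Dmbt1, a secreted scavenger receptor of mucosal defence, read 6.05 and 6.34 against 3.67 and 3.95 (2.38 ± 0.48, 0.00058). Pgrmc2, a haem-binding membrane protein, and Asphd2, an aspartate hydroxylase-like protein, were higher by 2.21 ± 0.40 (adjusted p = 0.00013) and 2.13 ± 0.42 (0.0004). After quantile normalization none of these 4 stayed called (1.51 to 1.87, adjusted p = 0.057 to 0.097), nor did Apoc2 without the second sham ileum array (2.31, 0.05). By list, 4 of 20 genes of chylomicron assembly and lipid absorption and 6 of 10 of peptide and amino acid uptake were called higher in sham ileum. Over all genes 2.45% were, and none of either list was called lower. Of 21 interferon response genes, 6 were called higher. The list counts of this comparison were not made after quantile normalization, where the calls over all probes were 29 higher and 36 lower.

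Cyp3a11 was lower in sham ileum (-2.71 ± 0.61, adjusted p = 0.0025; without the second sham ileum array -2.55, 0.07), as were 4 of the 26 drug metabolism genes, where 0.728% of all genes were. Car1, a carbonic anhydrase, read 1.26 and 1.64 in ileum and -0.18 and -0.27 in sham ileum (-1.67 ± 0.42, adjusted p = 0.0086), and was not called without the second array of either source (-1.49, 0.14 and -1.63, 0.11) or after quantile normalization (-1.46, 0.2). Dct, known from melanin synthesis, and the uncharacterised genes Gm53 and 1600010M07Rik were lower by -1.94 ± 0.32, -1.63 ± 0.23 and -1.73 ± 0.42 (adjusted p = 1.9e-05, 4.3e-07 and 0.0068). The last was not called without either ileum array (adjusted p = 0.092 and 0.058) or the first sham ileum array (0.17). Fgf15, Rbp2 and Yipf5 were the called genes of the segment comparison that also differed between both ileal sources (-0.84, adjusted p = 0.037; 1.63, 0.00038; 0.69, 0.035).

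**Figure D5:**
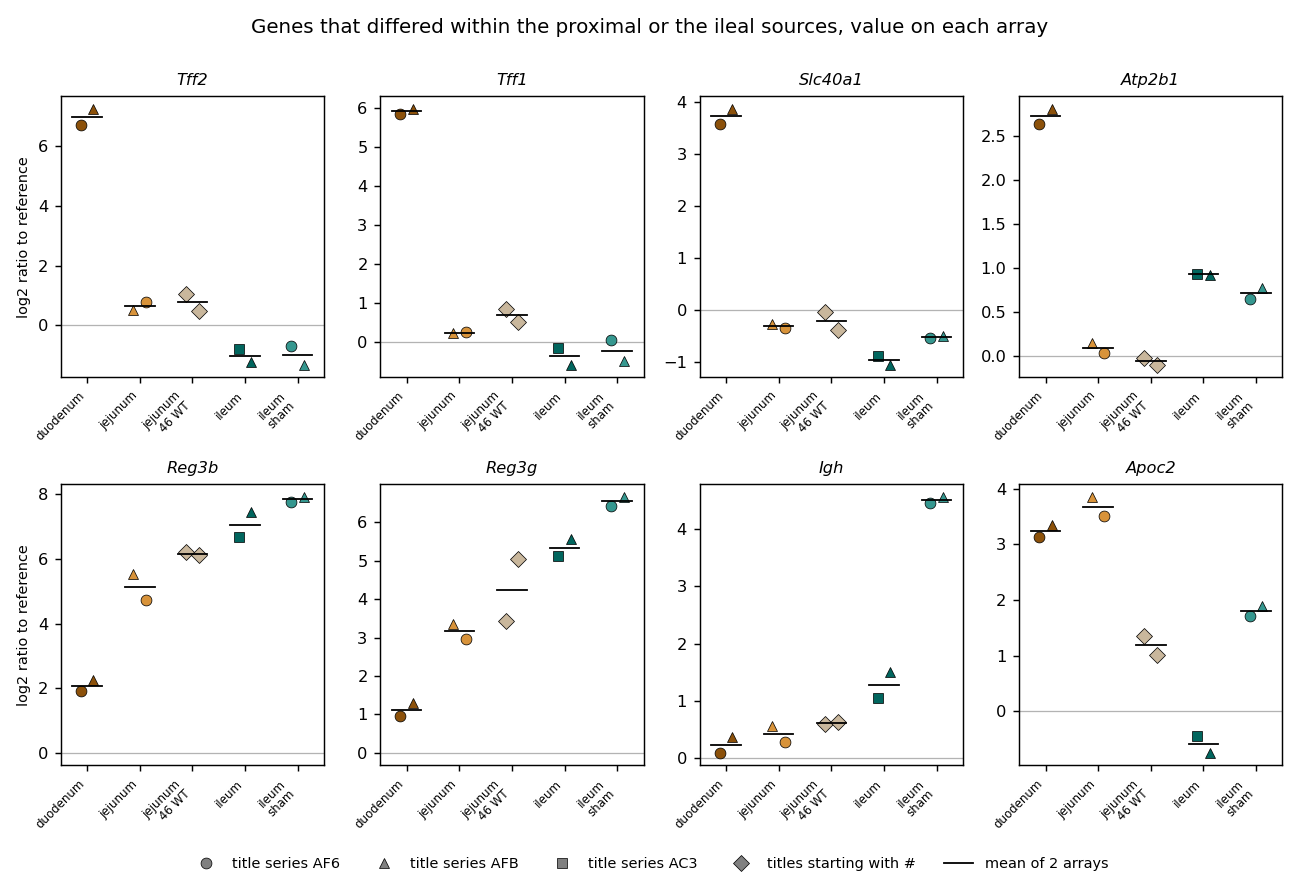
Each panel plots 1 gene, with the log2 ratio to the reference on the y axis, 1 point for each of the 10 arrays by source and a line at the mean of a source; point shapes give the title series. Tff2, Tff1, Slc40a1 and Atp2b1 are high in duodenum, Reg3b and Reg3g read lowest in duodenum, and Igh and Apoc2 differ between ileum and sham ileum.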

How the data were processed

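The 171 2-channel arrays are deposited as log2 ratios, 1 value for each of 8734 probes, against universal mouse reference RNA per the labels; no source used here gives the log base, the direction or the authors' normalization. Of these probes, 8709 have a median within 0.001 of 0 over all arrays, so the values are centred per probe. Probe names came from the platform annotation: 7540 probes have 1 symbol, 14 several and 1180 none. Arrays were averaged per source and 22 intestinal sources (8 normal, 14 tumours, 16 residual degrees of freedom) fitted with limma 3.58.1 in R 4.3.3, with the # title form as a covariate and Benjamini-Hochberg adjustment over 8494 probes at 0.05. Duodenum with proximal jejunum, and sham ileum with ileum, were compared with the array as the unit over all 171 arrays. Named genes are called genes with 1 symbol and 1 probe each (the probe with most values): the 15 highest and 15 lowest fitted differences for the segments, up to 4 called members of each list, and 5 each way for the other comparisons, for array comparisons only where groups do not overlap. Members of the bile acid, cobalamin, region factor and enteroendocrine lists may be given without a call; other exceptions are stated. The members and lists were chosen with earlier results of these data known. On data simulated for the segment comparison over 8494 probes, 29% of 2-fold and 85% of 4-fold changes were recovered. Array number limits the precision. Alternatives changed centring, normalization, filter, unit, sources and single arrays.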

Additional observations from a re-analysis of the deposited data

Results flagged for a closer look

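Over the 87 genes checked on the ileal and the proximal arrays, 3 groups of arrays (1.7%) held a value far from the others, where chance gives about 1 in 20. Krba1 read -1.0 on the second jejunum 46 WT array, with the nearest proximal array at -0.51. Bst1 read 0.58 on the second sham ileum array, where the other ileal arrays read 4.48 to 4.98. Mcm5 read 0.48 on the same array, with the nearest at 0.29.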

How the results depend on the processing

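The comparison of ileum with duodenum and jejunum called 30 probes. It called 9 after quantile normalization, 8 with normal sources only, 1 with the 5 sources alone, 2051 with the array as the unit (33 with the source as a random block, which kept 12 of the 30), 120 within series AFB and 1888 within series AF6. The series block over both, chosen after seeing the data, called 809. Leaving out single sources or arrays gave 12 to 49. Ileum against large intestine called 653, and 103 to 421 without single sources. Sham ileum against ileum called 253: 65 after quantile normalization, 9 with these arrays only, 477 with the series as a block, and 100 to 227 without single arrays. Duodenum against proximal jejunum called 66: 3 with these arrays only, and 39 to 87 without single arrays. No called difference of a named gene changed sign under any alternative run, but the balance of sham ileum against ileum moved from 189 higher and 64 lower to 29 and 36 after quantile normalization. No paired analysis was possible because the labels give no replicate numbers that match arrays across groups; the title series stood in as a block (809, 477 and, for duodenum against proximal jejunum, 86). With 2 or 3 sources a group, differences up to about 2-fold are mostly below reach. Of 124 probes with a fitted difference over 1 on the log2 scale, 96 were not called, and how many of them truly differ is not known.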
